A study of Mus musculus with 6 samples.

Results

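The Hox genes were described in mouse intestine as the 39 genes whose symbol is Hox followed by a cluster letter from a to d and a paralog number. All 39 were found among the 54446 gene identifiers of the count table. RNA was sequenced from 3 control and 3 NEC libraries of wild-type intestine, where NEC is the abbreviation of necrotizing enterocolitis. Control pups stayed with the dam and were spared hypoxia and cold. NEC pups were gavaged with 40 µl of 33% Esbilac formula every 4 h over 96 h, and every 12 h they were placed in 99.9% nitrogen for 100 s and then at 4 °C for 10 min. All animals were killed after 96 h, so diet, hypoxia and cold stress differ together between the groups. The labels do not say which segment of the intestine was taken, how old the pups were, or whether each library came from a separate animal. The p-values therefore measure the spread between these libraries, which may in part be technical.

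Hox genes encode homeodomain transcription factors that give cells their position along the head-to-tail axis. They lie in 4 clusters, and genes of the same number in different clusters are paralogs. Low-numbered genes at one end of a cluster are switched on early and reach far forward in the embryo, and high-numbered genes at the other end are confined to the rear. In the gut the middle paralogs are known for the small intestine, and the highest-numbered ones, such as Hoxa13 and Hoxd13, for the hindgut. CDX factors act upstream of Hox genes, and PBX and MEIS proteins bind DNA together with Hox proteins.

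Measurable Hox expression ended with the gene numbered 9 in the Hoxb, Hoxc and Hoxd clusters and with Hoxa7 in the Hoxa cluster. Values are given as CPM, which are counts scaled to a common library size, or, to compare genes, as a level, which is CPM per kilobase of exon. Of the 8 genes with paralog numbers 1 to 3, 6 had enough counts to be tested, and Hoxb1 and Hoxd1 had 0 counts in every library. Of the 15 genes with numbers 4 to 8, 14 were tested and all 15 had counts. Of the 16 genes with numbers 9 to 13, only Hoxb9, Hoxc9 and Hoxd9 were tested. Hoxa9 had at most 9 counts in a library, Hoxa10 had 4 counts in control replicate 2 alone, and 11 others had 0 counts in all 6 libraries. These 11 were Hoxa11, Hoxa13, Hoxb13, Hoxc10 to Hoxc13 and Hoxd10 to Hoxd13. A count of 0 allows up to 3 counts, or between 0.0285 and 0.0431 CPM depending on the library, which covers counting error only. The remaining gene with few counts was Hoxa6, with 2 to 28 counts, which missed the low-count filter. In all, 23 genes were tested, 3 had counts below the filter and 13 had none. Genes numbered 11 to 13, those of the hindgut, thus had 0 counts in control and in NEC alike.

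The switch from measured to unmeasured genes is seen within a few kilobases of the Hoxd cluster on chromosome 2, where Hoxd10 (74691924 to 74695105) had 0 counts, Hoxd9 (74697727 to 74700208) had 10 to 70 counts per library and Hoxd8 (74704615 to 74707933) had 142 to 363. Positions follow the GENCODE M21 annotation of mm10 and count from 1, and the 3 genes lie on the plus strand. The 250 bases before the RefSeq start of Hoxd8 and of Hoxd10 (assembly GRCm38.p6, plus strand, 5′ to 3′) are shown. These genes stand on either side of that switch, with Hoxd9 between them. Capitals mark CpG dinucleotides, the bases at which vertebrate DNA is methylated.
Hoxd8, chr2:74704365-74704614: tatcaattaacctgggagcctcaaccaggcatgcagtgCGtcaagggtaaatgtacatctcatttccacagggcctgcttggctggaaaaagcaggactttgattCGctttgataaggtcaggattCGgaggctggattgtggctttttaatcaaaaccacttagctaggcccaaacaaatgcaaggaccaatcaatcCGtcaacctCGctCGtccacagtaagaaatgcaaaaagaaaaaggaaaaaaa
Hoxd10, chr2:74691641-74691890: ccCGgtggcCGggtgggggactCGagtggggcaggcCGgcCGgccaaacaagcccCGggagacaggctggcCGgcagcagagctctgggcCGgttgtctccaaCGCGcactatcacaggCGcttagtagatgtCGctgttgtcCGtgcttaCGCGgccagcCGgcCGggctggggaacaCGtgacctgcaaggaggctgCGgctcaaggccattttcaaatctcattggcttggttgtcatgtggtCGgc
The window of Hoxd8, a gene with RNA in all 6 libraries, held 6 CpG, and that of the unmeasured Hoxd10 held 20. That of Hoxd9, which lies between them, held 13, and the windows of the unmeasured Hoxd11 held 2 and 20. RefSeq gave 24 such windows for 22 of the Hox genes. The median was 12 CpG in the 11 windows of tested genes (range 3 to 28) and 20 in the 9 windows of genes with 0 counts (range 2 to 35), against 6 over 32851 windows of all genes. The letters TTTATG, a CDX motif, were found on either strand in 5 of the 24 Hox windows and in 10.8% of all windows, and TGATNNAT, a PBX-HOX motif, in 4 of the 24 and in 7.68%. The windows of Hoxd8 and Hoxd10 held neither. Such matches only describe the letters in these windows.

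**Figure D1:**
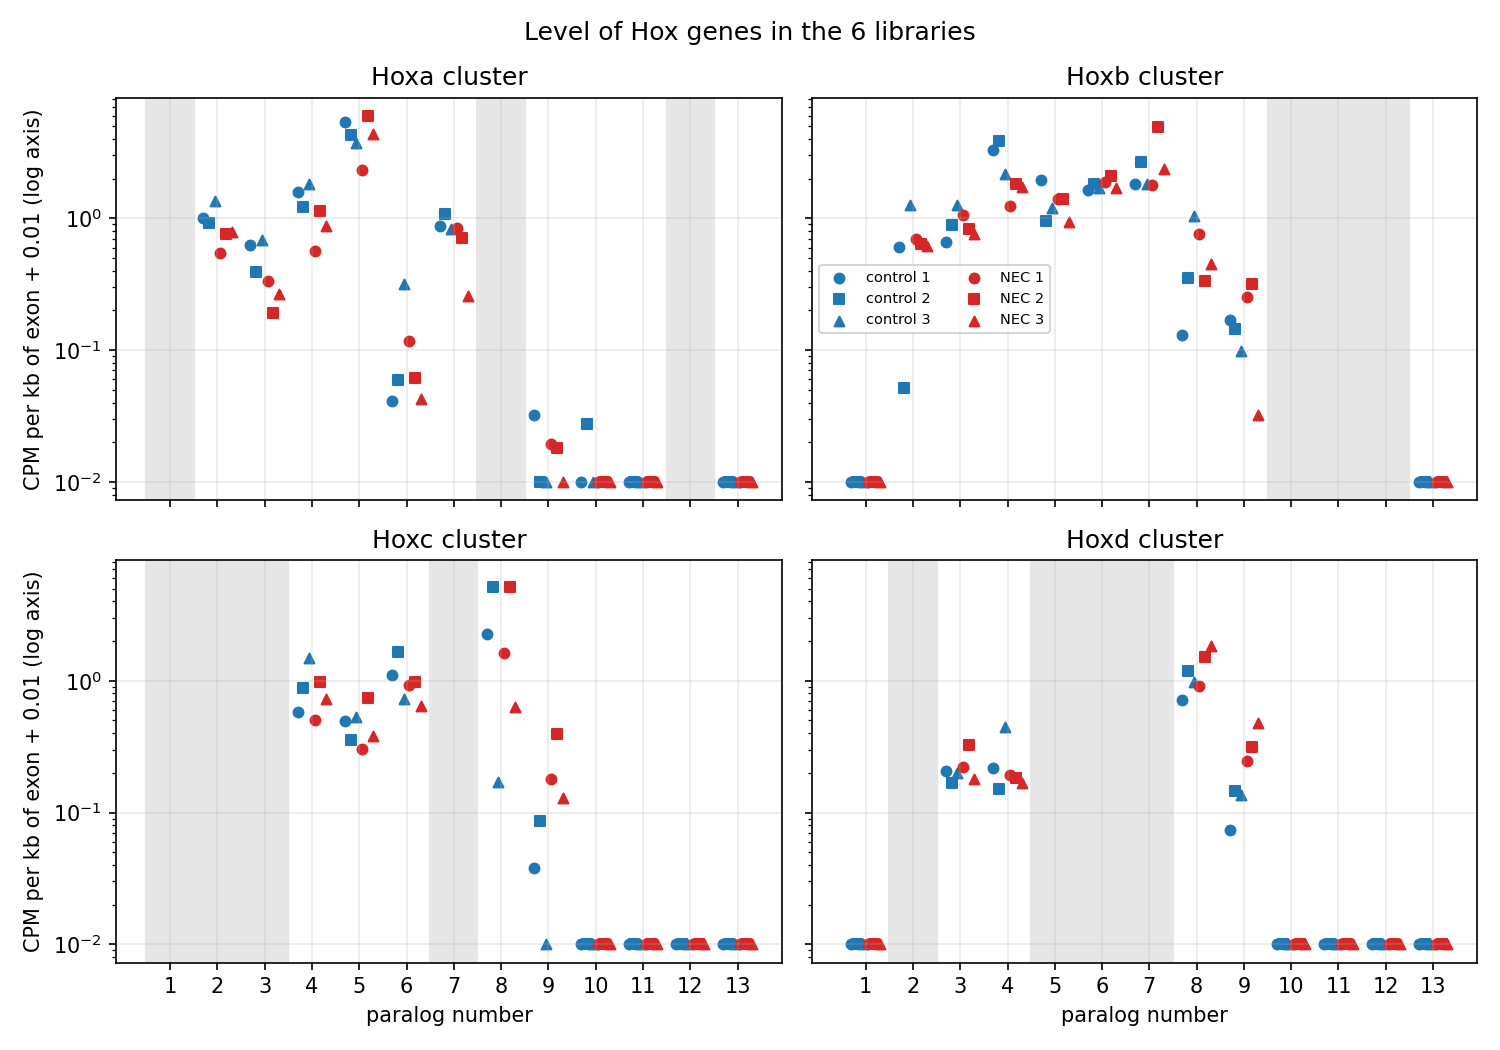
Level of the Hox genes shown, by paralog number in the 4 clusters, as CPM per kilobase of exon plus 0.01 on a log axis, with 1 point per library (blue control, red NEC; circle, square and triangle for replicates 1, 2 and 3). Grey bands mark numbers with no gene shown in that cluster; points at the floor of 0.01 are libraries with 0 counts, which hold nearly all values from number 10 upward.

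Before the groups were compared, libraries that stand apart were noted. Control replicate 1 held RNA of both the female gene Xist (179 CPM) and the Y-linked gene Ddx3y (19.8 CPM), and control replicate 2 held Xist (344 CPM) with little Ddx3y (1.29 CPM), while the other 4 libraries had Xist of 1.17 CPM or less. Both libraries with much Xist were controls, so Xist was not balanced between control and NEC, and the labels do not give the sex. Sample codes beginning AG181017 (control replicates 1 and 2, NEC replicates 2 and 3) and AG181028 (control replicate 3, NEC replicate 1) also divide the libraries. Total counts ran from 69441184 to 106304239 per library. The epithelial markers Epcam, Cdh1, Krt8, Krt18, Krt19, Krt20 and Vil1 were present in all libraries, with sums of 6006 to 6771 CPM in control and 5616 to 7214 CPM in NEC. The pancreas genes Ptf1a and Pnlip and the stomach gene Tff1 were at 0 counts in all libraries. Other members of these lists had RNA: the chymotrypsinogen gene Ctrb1 had 121, 19.7 and 142 CPM in control replicates 1, 2 and 3 and 14.4, 5.15 and 76.4 CPM in the NEC replicates, and the stomach gene Gkn3 had up to 1.66 CPM. Their part in the Hox values was not tested.

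Most Hox RNA came from the middle paralogs. Per kilobase of exon, Hoxa5 had the highest mean level over the 6 libraries (4.31), followed by Hoxb7 (2.56), Hoxc8 (2.47), Hoxb4 (2.34) and Hoxb6 (1.79). Hoxa5 is known for its part in lung and gut development. The levels of Hoxb7, Hoxc8 and Hoxb4 lie closer together than the spread of each over the libraries. Genes numbered 4 to 8 made up 78.6% to 89.8% of the summed Hox level in control and 81.0% to 88.0% in NEC. The Hoxa cluster gave 34.4 ± 5.29% of the summed level in control and 28.7 ± 3.51% in NEC. The Hoxb cluster gave 40.5 ± 3.02% in control and 43.0 ± 4.48% in NEC, and the Hoxd cluster gave 5.83 ± 1.27% and 9.46 ± 3.09% (SD, n = 3 each). The Hoxd shares did not overlap, at 4.64% to 7.17% in control and 7.26% to 13% in NEC. The summed level of all 39 genes was 25.4, 28.4 and 24 in the controls and 18.8, 31.5 and 20.2 in NEC. The groups overlap, since the NEC libraries include the highest and the lowest sum.

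NEC replicate 2, with the highest Hox sum, also had the highest summed fibroblast markers (1914 CPM, against 490 to 934 CPM in the other 5 libraries, all 8 markers with counts) and mesothelial markers (68.1 CPM, against 2.53 to 15.7 CPM, all 4 with counts). NEC replicate 1 had the lowest Hox sum and the lowest fibroblast sum. Their part in the Hox levels was not tested. In whole tissue, fewer cells of a type and less RNA per cell cannot be told apart.

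No Hox gene passed the comparison of NEC with control. The edgeR quasi-likelihood test, with Benjamini-Hochberg adjustment over 19176 genes and a threshold of 0.05, called 0 of the 23 tested members, where it called 0.704% of all genes tested (0.261% higher and 0.443% lower in NEC). The smallest adjusted p among the members was 0.237, for Hoxb4. At an unadjusted p below 0.05 there were 3 of 23 members (13%), namely Hoxa3, Hoxb4 and Hoxd9, against 15.6% of all genes tested. DESeq2 and limma-voom also called 0 members, where they called 1452 and 151 of all genes. In simulated counts for these libraries the test recovered 2% of genes whose log2 fold change was set to 1 and 38% of those set to 2, so 0 calls do not show that the genes did not differ.

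The signs of the values differed by paralog number and in part by cluster, as a description with no test. All 3 NEC libraries were below all 3 controls for 5 members, all numbered 1 to 4, and above them for 2 members, both numbered 9. That is 30.4% of the 23 tested, against 22.4% of all genes tested whose groups did not overlap (11.6% lower and 10.8% higher), a share near the background. Of the 5 lower members, 4 were of the Hoxa cluster, whose 6 tested genes all had negative values. Paralog number and cluster were not separated. The median log2 fold change was -0.37 over the 6 tested genes numbered 1 to 3, -0.11 over the 14 numbered 4 to 8 and 1.64 over the 3 numbered 9, beside 0.026 over all genes tested. The first was -0.15 without control replicate 3, -0.65 without control replicate 2, -0.16 within the 4 AG181017 samples and -0.098 with a filter of at least 50 counts. The last is the value of Hoxd9 and covers only the 3 of 16 genes that cleared the low-count filter. Of these, Hoxc9 and Hoxd9 cleared it only with the NEC libraries. The median was 0.60 with no filter, which adds Hoxa9 and Hoxa10.

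**Figure D2:**
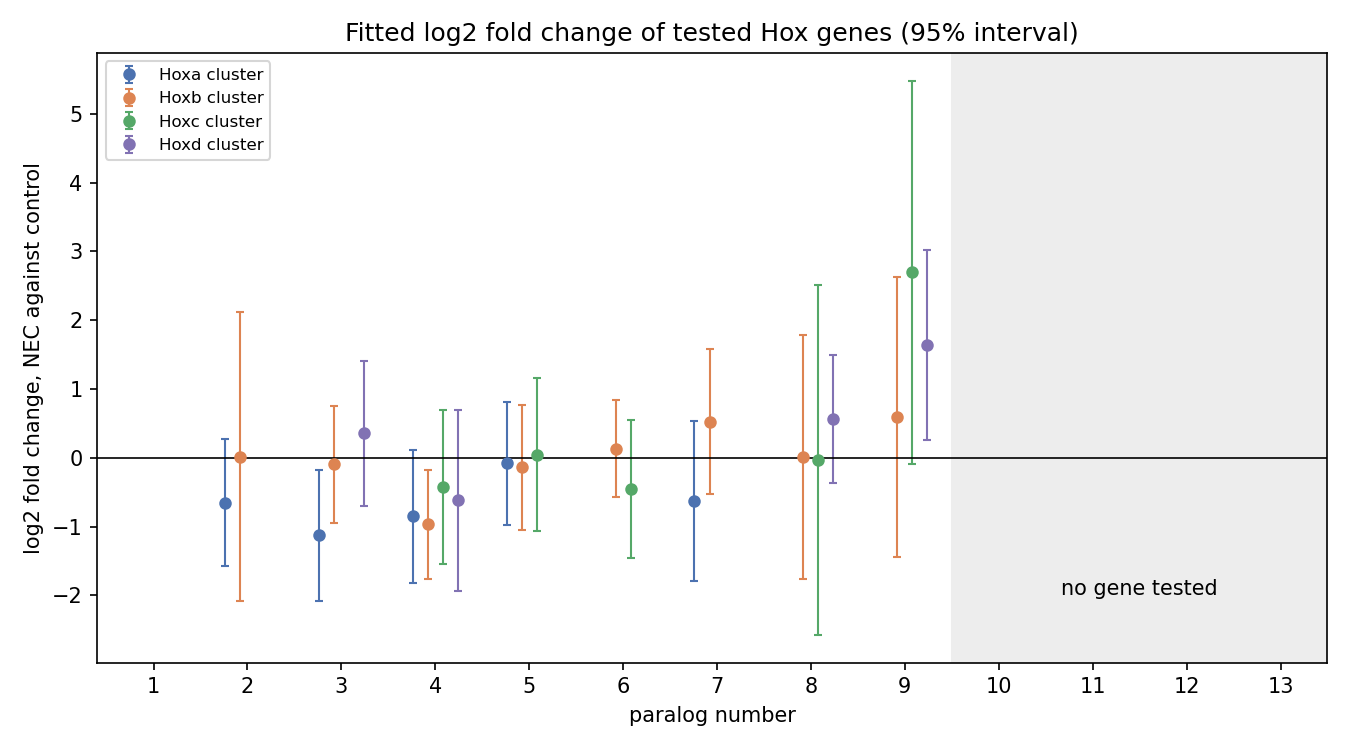
Fitted log2 fold change of NEC against control (y axis) by paralog number (x axis) for the tested Hox genes shown, coloured by cluster, with 95% intervals. Values for numbers 1 to 4 lie mostly below 0 and the 3 values for number 9 above 0, while the intervals of all genes shown except Hoxa3, Hoxb4 and Hoxd9 include 0.

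Among the anterior genes, those of the Hoxa cluster had negative values in NEC against control. Hoxa3, known for its part in thymus and parathyroid development (chromosome 6, 52169062 to 52213336), had 3.69, 2.28 and 4.05 CPM in the controls (replicates 1 to 3, the order used throughout) and 1.94, 1.09 and 1.55 CPM in NEC. The groups did not overlap, and control replicate 2 came closest to NEC. Its log2 fold change was -1.13 (SE 0.41, 95% interval -2.08 to -0.18, edgeR adjusted p = 0.250).

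Hoxa2, which patterns the hindbrain and the second branchial arch (52162417 to 52164831), had 1.76, 1.61 and 2.40 CPM in control and 0.954, 1.34 and 1.38 CPM in NEC. Hoxa4, of the same cluster (52189671 to 52191753), had 2.51, 1.93 and 2.88 CPM in control and 0.891, 1.78 and 1.38 CPM in NEC. All NEC libraries lay below all controls for both genes, with log2 fold changes of -0.65 (SE 0.40) and -0.85 (SE 0.42). Their edgeR adjusted p-values were 0.488 and 0.383. Hoxa5 and Hoxa7 had log2 fold changes of -0.081 and -0.63 with overlapping groups, and all 6 tested genes of the Hoxa cluster had negative values (median -0.75). With library-size scaling Hoxa5 had 0.029 instead.

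The tested genes numbered 1 to 3 of the other clusters had values near or above 0, though no difference between clusters was tested. This contrast does not hold for number 4, where the other clusters also had negative values. Hoxb3 ran from 2.77 to 5.32 CPM in control, from 3.20 to 4.47 CPM in NEC, with a fold change of -0.092 on the log2 scale (SE 0.37), and Hoxd3 had a log2 fold change of 0.36 (SE 0.46), both with overlapping groups. Hoxb2 had 0.144 CPM, or 10 counts, in control replicate 2 and between 2.08 and 4.35 CPM in the other 5 libraries. Its log2 fold change of 0.016 (SE 0.91) was -0.54 without that library.

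Genes numbered 4 had negative values in all 4 clusters with the 6 libraries, and near 0 for Hoxc4 (-0.0059) and Hoxd4 (-0.046) without control replicate 3. Hoxb4, known as a regulator of blood stem cells (chromosome 11, 96318267 to 96321638), had 8.37, 9.91 and 5.56 CPM in control and 3.16, 4.62 and 4.43 CPM in NEC. The lowest control lay above the highest NEC library, and the log2 fold change was -0.97 (SE 0.34, 95% interval -1.76 to -0.17, edgeR adjusted p = 0.237). Hoxc4 had a log2 fold change of -0.43 (SE 0.48) and Hoxd4 of -0.62 (SE 0.57), with groups that overlapped. Within the 4 AG181017 samples, 2 per group, Hoxc4 had 0.20. Summed over the 4 clusters, the number 4 level was 5.61, 6.09 and 5.89 per kilobase in control and 2.46, 4.06 and 3.46 in NEC.

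The middle genes from 5 to 8 went in both directions, and all their groups overlapped. Hoxb5, which acts in neural crest cells of the gut, had a log2 fold change of -0.14 (SE 0.39), Hoxb6 of 0.13 (SE 0.31), Hoxc5 of 0.043 (SE 0.48) and Hoxc6 of -0.45 (SE 0.43). Hoxb6 varied little between libraries, with 3.17 to 3.56 CPM in control and 3.33 to 4.08 CPM in NEC. Hoxb7 had 2.81, 4.11 and 2.79 CPM in control and 2.74, 7.57 and 3.66 CPM in NEC, where the high value is that of NEC replicate 2. Hoxd8 had 1.93, 3.23 and 2.67 CPM in control and 2.47, 4.10 and 5.0 CPM in NEC. Its log2 fold change was 0.56 (SE 0.40). Hoxb8 ranged from 0.313 CPM in control replicate 1 to 2.72 CPM in control replicate 3, wider than its NEC range of 0.858 to 1.97 CPM.

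The genes numbered 9, the last with measurable RNA, had positive values. Hoxd9, which acts in limb and spinal cord patterning, had 0.136, 0.287 and 0.266 CPM in the controls (10, 20 and 28 counts) and 0.503, 0.654 and 1.01 CPM in NEC (48, 58 and 70 counts). Every NEC library lay above every control, and the log2 fold change was 1.64 (SE 0.60, 95% interval 0.26 to 3.02, edgeR adjusted p = 0.250). In control replicate 1 Hoxd9 fell just short of the low-count filter, so it cleared that filter only with the NEC libraries. Hoxc9, which sets motor neuron identity in the thoracic spinal cord (chromosome 15, 102976439 to 102985099), had 5, 13 and 0 counts in control and 39, 82 and 20 counts in NEC. Its groups did not overlap either (log2 fold change 2.70, SE 1.20, edgeR adjusted p = 0.336), but 1 control library reached 10 counts against all 3 NEC libraries, so it cleared the low-count filter through the NEC group. Without control replicate 2 the Hoxc9 log2 fold change was 4.03. Hoxb9 had 0.409, 0.345 and 0.228 CPM in control and 0.629, 0.790 and 0.0575 CPM in NEC, so NEC replicate 3 lay below all controls and the groups overlapped (log2 fold change 0.60, SE 0.88). Without NEC replicate 3 Hoxb9 had 1.12 and without NEC replicate 2 it had 0.11.

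As a share of the summed Hox level, the genes numbered 9 to 13 made up 1.08%, 1.28% and 0.890% in the controls and 3.50%, 3.18% and 3.03% in NEC. The means were 1.08 ± 0.195% and 3.24 ± 0.240% (SD, n = 3 each), and the difference of 2.16 percentage points was larger than the spread in either group. The share was not tested, because it is a score over the members. It came mostly from Hoxb9, Hoxc9 and Hoxd9, with 0 to 30 counts each per control library, and so restates their values. In the Hoxa cluster alone the difference was -0.054 points, since Hoxa9 and Hoxa10 had almost no counts. The share of genes numbered 1 to 3 was 14 ± 5.91% in control and 12.5 ± 3.37% in NEC, which differed by less than the spread.

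The mean paralog number, weighted by level, was 5.18, 5.70 and 4.86 in control and 5.57, 5.88 and 5.42 in NEC. The group means were 5.25 ± 0.425 and 5.63 ± 0.235 (SD, n = 3 each), and the difference of 0.38 was smaller than the control spread. Control replicate 2 lay above NEC replicates 1 and 3, so the groups overlapped. The difference was 0.19 without control replicate 3, 0.61 without control replicate 2, 0.25 without NEC replicate 2 and 0.21 within the 4 AG181017 samples.

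**Figure D3:**
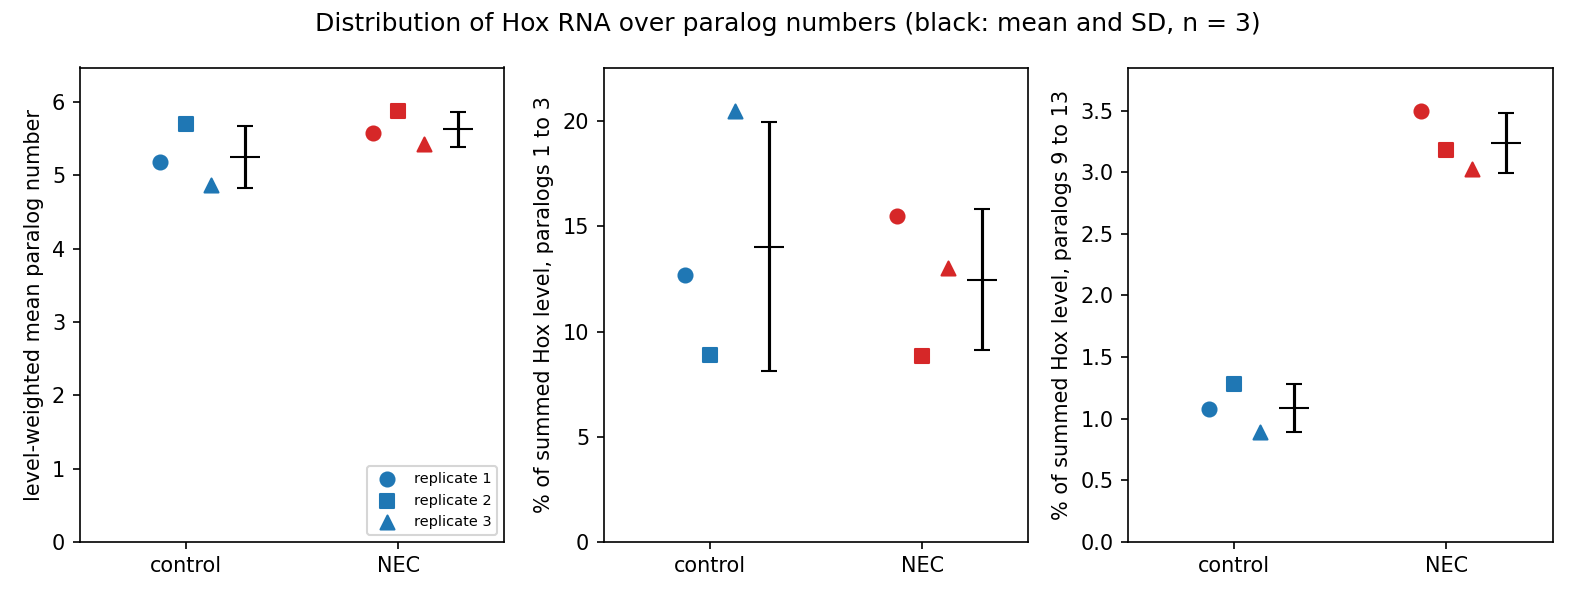
Level-weighted mean paralog number (left), and share of the summed Hox level in genes numbered 1 to 3 (middle) and 9 to 13 (right), in percent, for each library of control (blue) and NEC (red); black bars are the mean and SD of 3 libraries. The share of numbers 9 to 13 is between 0.890% and 1.28% in control and between 3.03% and 3.50% in NEC, while the other measures overlap.

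Libraries of the same group differed more in Hoxc8 than the group means did. Hoxc8, which acts in the thoracic spinal cord and skeleton, had 6.40, 14.4 and 0.456 CPM in the controls and 4.58, 14.4 and 1.75 CPM in NEC. That is a 31.6-fold range in control and an 8.23-fold range in NEC, around means of 7.09 ± 7.0 and 6.92 ± 6.66 CPM (SD, n = 3 each). Its log2 fold change was -0.032 (SE 1.09), turning to 1.01 without control replicate 2, to -0.59 without control replicate 3 and to -1.15 without NEC replicate 2. Per kilobase, Hoxc8 stood at 0.109 times the level of Hoxc4, of the same cluster, in control replicate 3 and at 0.871 times in NEC replicate 3. In the other 4 libraries it stood at 3.30 to 5.83 times.

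Genes known for a gut region, named here after their values were seen, varied beside Hoxc8. Onecut2, a transcription factor gene of the proximal small intestine, had 7.03, 0.747 and 37.5 CPM in the controls and 0.713, 1.30 and 6.95 CPM in NEC. Pdx1, which marks duodenum and pancreas, had 1.52 CPM in control replicate 3 and at most 0.172 CPM in the other libraries. Fabp6, the ileal bile acid-binding protein gene, had 1.04, 20.9 and 0 CPM in control and 5.90, 8.43 and 1.42 CPM in NEC. Control replicate 3 thus had the least Hoxc8, the most Onecut2 and Pdx1 and no Fabp6 counts, and control replicate 2 had much Hoxc8, the most Fabp6 and little Onecut2. The other distal markers did not all follow: in control replicate 2 Amn (309 CPM, against 581 and 565 CPM) and Slc51b (84.7 CPM, against 108 and 112 CPM) were the lowest of the controls, while Fgf15, Cubn, Lgmn and Dab2 were the highest. The part of the sampled segment in these differences was not tested, and the labels do not give it.

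**Figure D4:**
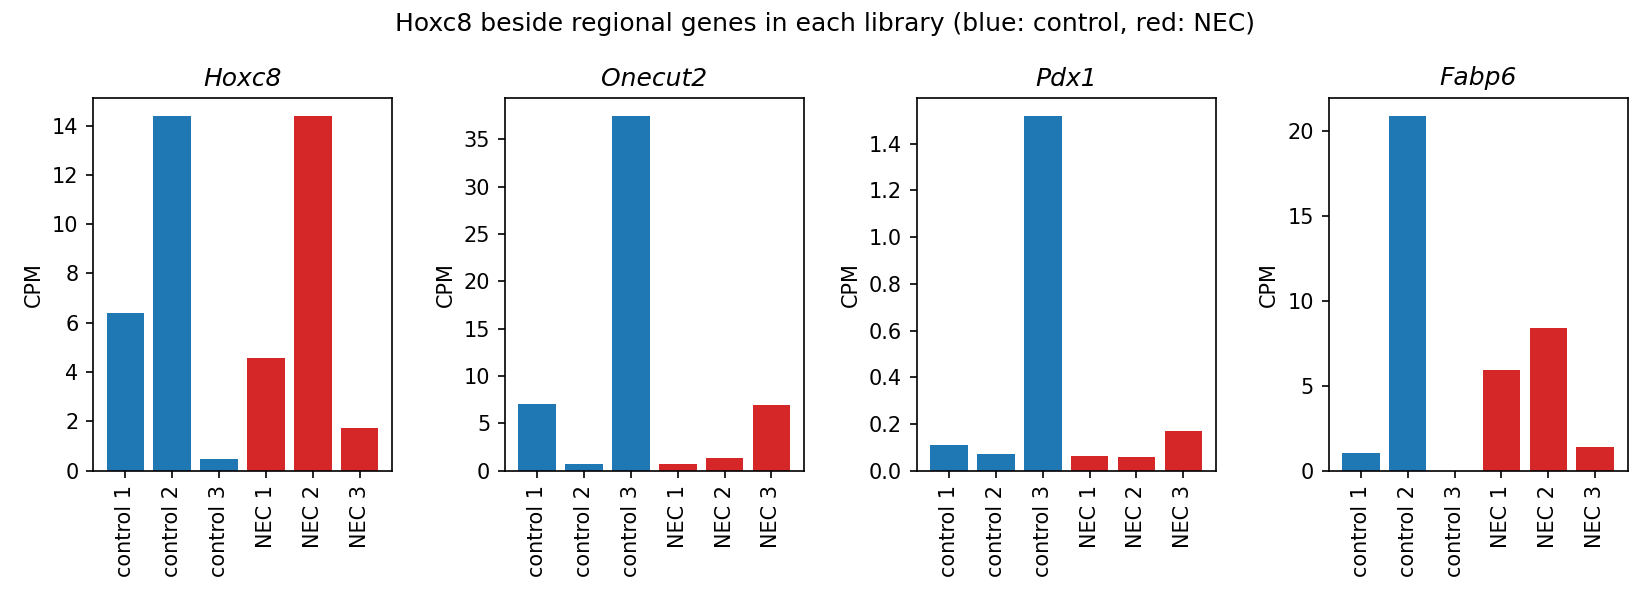
CPM of Hoxc8, of the proximal genes Onecut2 and Pdx1 and of the ileal gene Fabp6 in each of the 6 libraries (blue control, red NEC). Control replicate 3 is lowest for Hoxc8 and highest for Onecut2 (37.5 CPM) and Pdx1 (1.52 CPM), and control replicate 2 is highest for Fabp6 (20.9 CPM).

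Regional markers were also set against the groups. All 6 tested markers of the proximal intestine had negative log2 fold changes (median -1.88), and 0 passed the edgeR test over all genes. The lactase gene Lct had 2476, 1462 and 2951 CPM in control and 747, 376 and 667 CPM in NEC. Its edgeR adjusted p was 0.0761, at a log2 fold change of -1.94 (SE 0.39). Cybrd1, a duodenal ferric reductase gene, had a log2 fold change of -2.54 (SE 0.51) and the iron exporter gene Slc40a1 of -1.37 (SE 0.27). Of 10 distal small intestine markers, 5 had positive and 5 negative values (median -0.041), and 0 passed. Slc10a2, the ileal bile acid transporter gene, had 0, 16 and 0 counts in control and 429, 161 and 33 counts in NEC (edgeR adjusted p = 0.198). Like Hoxc9, it cleared the low-count filter through the NEC group. On the same list, Dab2, an endocytic adaptor gene, was lower in every NEC library (907 ± 163 CPM in control, 455 ± 121 CPM in NEC, SD, n = 3 each; log2 fold change -0.99, SE 0.29, edgeR adjusted p = 0.169). The hormone gene Fgf15 had 102, 140 and 30.6 CPM in control, and its NEC libraries, at 39.8 to 67.9 CPM, lay within that range. Of the 5 colon markers in the table, Retnlb had 0 counts in all libraries and Car1 was at most 0.0575 CPM. The 3 tested colon markers all missed the threshold, with negative values (median -0.38).

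The partners and regulators of Hox genes did not pass the test either. Of 9 PBX, MEIS and PREP cofactor genes 0 were called, 7 had positive and 2 negative values, and Pbx2 had the smallest p (42.9 ± 4.72 CPM in control, 31.4 ± 2.59 CPM in NEC, SD, n = 3 each; log2 fold change -0.45, SE 0.21). Meis3 was higher in every NEC library (10.4 ± 1.18 CPM against 13.4 ± 0.515 CPM, log2 fold change 0.37, SE 0.24). Cdx2, the main intestinal CDX gene, had 218, 190 and 245 CPM in control and 219, 137 and 132 CPM in NEC, with overlapping groups (log2 fold change -0.42, SE 0.27). Cdx1 had a log2 fold change of 0.35 (SE 0.31), and Cdx4, Evx1 and Evx2, which act in the posterior embryo, had 0 counts. Of 12 Polycomb and trithorax genes, which keep Hox genes silent or active, 0 were called. Among them the H3K27 demethylase gene Kdm6a had a log2 fold change of -0.62 (SE 0.30) and the Polycomb gene Bmi1 of 0.42 (SE 0.21). Kdm6a had 31.1, 30.3 and 27.8 CPM in control and 24.1, 12.0 and 21.8 CPM in NEC. Control replicates 1 and 2 were the libraries with much Xist, and the relation of Kdm6a to that imbalance was not tested.

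Among 15 noncoding RNAs of the Hox clusters, 7 were tested and 0 passed over all genes. Hoxb3os, transcribed opposite Hoxb2 and Hoxb3, had 1.80, 2.53 and 1.66 CPM in control and 0.241, 0.406 and 0.374 CPM in NEC. The lowest control was far above the highest NEC library. Its edgeR adjusted p was 0.0603 (log2 fold change -2.55, SE 0.46), and 0.0807 to 0.268 with 1 library left out. The adjusted p was under the threshold with the sample code as a term in edgeR (0.0450), with the edgeR filter of at least 50 counts (0.0483) and in DESeq2 (5.2e-06). Hoxb3os overlaps 52.9% of the exonic bases of Hoxb3 and 27.3% of those of Hoxb2. Since the strand setting is not given in the sources used here, their shared bases cannot be told apart. Overlaps are also found in the Hoxa cluster. Gm28308 overlaps 15.0% of the exonic bases of Hoxa2 and 8.0% of those of Hoxa3 on the same strand, so no strand setting would separate them. The strand limit holds for genes on the opposite strand, where Gm29430 overlaps 16.0% of the exonic bases of Hoxa4. Opposite Hoxa3, Hoxaas2 overlaps 8.4% of its exonic bases, Gm29430 7.3%, Hoxaas3 4.9% and 5730596B20Rik 4.9%. Hoxaas3 also overlaps 20.4% of the exonic bases of Hoxa7.

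Hotairm1, a long noncoding RNA of the Hoxa cluster, was higher in every NEC library (1.1, 0.963 and 1.26 CPM against 2.74, 1.48 and 2.76 CPM; log2 fold change 1.06, SE 0.42). Hoxd3os1, opposite Hoxd3 and Hoxd4, was also higher in every NEC library than in any control, and had a fold change of 1.57 on the log2 scale (SE 0.56). Hoxd3 and Hoxd4 share 388 exonic bases with each other, and the same-strand gene Gm28230 covers 53.1% of the exonic bases of Hoxd3 and 39.1% of those of Hoxd4, so their counts are uncertain. Hottip and Hoxa11os, from the posterior end of the Hoxa cluster, and Hotair, from that of the Hoxc cluster, had 0 counts, as did the coding genes beside them.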

How the data were processed

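Whole-number counts per gene were deposited by the authors for the 6 libraries in 1 table, with genome build mm10 per the submitters' processing notes. The sources used here name no aligner, counter, annotation or strand setting. In it, counts of 5 to 39 were 1.68 times as frequent at multiples of 4 as at other values. The cause was not tested. Of the identifiers, 54409 matched a symbol and 37 did not. Counts were tested with edgeR 4.0.16 (R 4.3.3): filterByExpr with a minimum count of 10, TMM scaling, robust=TRUE, quasi-likelihood F test of NEC against control with all 6 libraries, Benjamini-Hochberg over the 19176 genes kept. Log2 fold changes are NEC against control, with SE and 95% intervals from that fit. CPM uses TMM-scaled library sizes, and levels divide CPM by the union of exons in GENCODE M21. Alternatives used other scalings, filters, DESeq2 1.42.0, limma-voom (limma 3.58.1), a replicate block, the sample code and left-out libraries. On simulated data for these 19176 genes, 10 of 106 calls fell on unchanged genes. No pair of replicates differed by as little as sampling noise. Named genes were all 39 Hox genes, the CDX and EVX genes, and from other lists up to 4 members with the smallest p and those at 0. Onecut2, Pdx1, Fabp6, Amn, Slc51b, Cubn, Lgmn and Car1 fall outside this rule. The Hox genes and the lists were chosen with earlier results of these data known. Prac1, on the colon list, was not analysed here. Some genes that the rule names are not reported here singly, in text or figures, but are part of the counts, sums and medians.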

Additional observations from a re-analysis of the deposited data

How the results depend on the processing

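No Hox gene was called in any of the 17 alternatives, and 14 of the 23 tested kept their sign in all of them. The count of called genes over all genes was 135, and 247 without the low-count filter, 243 with the sample code as a term, 25 within the 4 AG181017 samples, 1452 with DESeq2, and 0 to 106 with 1 library left out (0 without control replicate 1, 25 without control replicate 3, 34 without NEC replicate 1 and 3 without NEC replicate 3). With the replicate number as a block it was 54. Deviations of same-numbered libraries from their group means had correlations of -0.14, 0.27 and -0.0070. The largest of any control with any NEC library was 0.36, for control replicate 3 and NEC replicate 1, which share the code AG181028. With 3 libraries per group these values cannot decide whether the numbers pair libraries. Fold changes near 0 changed sign: Hoxa5 had 0.029 with library-size scaling and 0.080 within AG181017, Hoxb3 0.0024 and Hoxc4 0.20 within AG181017, Hoxb8 -0.0013 with upper-quartile scaling, and Hoxc5 -0.055 with the replicate block and -0.057 with limma-voom. Hoxc8 had 0.14 with library-size scaling, 0.43 with the replicate block, 0.69 with the sample code and 0.69 with limma-voom. With 1 library left out the ranges were -0.43 to 0.21 for Hoxa5, -0.54 to 0.99 for Hoxb2, -0.29 to 0.18 for Hoxb3, -0.34 to 0.21 for Hoxb5, -0.027 to 0.80 for Hoxb7, -0.45 to 1.12 for Hoxb8, -0.45 to 0.28 for Hoxc5 and -1.15 to 1.01 for Hoxc8. The median over numbers 1 to 3 ran from -0.65 to -0.15 with 1 library left out. That over 4 to 8 ran from -0.51 to -0.035 with 1 library left out (-0.51 without NEC replicate 2). That over 9 to 13 was 0.60 with no low-count filter, which adds Hoxa9 and Hoxa10, and the filter of at least 50 counts left no gene there to give a value. The share of numbers 9 to 13, whose alternatives were chosen after seeing the data, differed by 3.04 points with log2(CPM + 1) weights, 1.93 within AG181017, and -0.054, 0.61, 4.24 and 8.58 in the Hoxa to Hoxd clusters alone. The cause of these changes was not tested.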

Other observations

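Some regulators had 1 or 2 libraries far below the rest, chosen here after their values were seen. Suz12, a Polycomb gene, had 14 CPM in control replicate 2 and 22.6 CPM in NEC replicate 1 and between 75.1 and 89.0 CPM in the other 4 libraries. Pknox1, a PREP cofactor gene, had 4.86 CPM in control replicate 2 and between 8.02 and 16.9 CPM elsewhere. Control replicate 2 is also the library in which Hoxb2 had 10 counts. Among the markers of other cell types, all 8 fibroblast, 6 smooth muscle, 4 mesothelium, 7 enteric neuron and glia, 3 interstitial cell of Cajal, 6 tested leukocyte and 7 epithelium genes missed the edgeR threshold, with median log2 fold changes of 0.37, 0.086, 1.57, -0.17, -0.44, 0.13 and -0.12. Of 5 endothelium genes (median 0.14) 1 was called: Lyve1, a lymphatic endothelium and macrophage receptor gene, rose from 6.84 ± 1.36 CPM in control to 42.8 ± 13.6 CPM in NEC (SD, n = 3 each; log2 fold change 2.64, SE 0.33, edgeR adjusted p = 0.0307). With 1 library left out its adjusted p ran up to 0.199, the value without control replicate 1. The call ended in 4 of the 6 left-out fits.
The 1 tested stomach gene and 2 tested pancreas genes also missed the threshold, with medians of -2.92 and -0.98.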
